A study of Mus musculus with 6 samples.

Results

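The genes described here are the replication-dependent histone genes of the mouse, 67 of the 55487 genes in the count table. They were taken by symbol: 62 carry an older name of the form Hist1, Hist2, Hist3 or Hist4 followed by a class (h1, h2a, h2b, h3 or h4) and letters, and 5 were reached only through their newer names (Hist2h2aa1, Hist2h2aa2, Hist2h3c1, Hist2h3c2 and Hist2h4). By class they are 6 linker histone H1 genes, 19 H2A, 18 H2B, 12 H3 and 12 H4 genes, 2 of which (Hist1h2aj and Hist1h2al) are annotated as pseudogenes. RNA was sequenced from muscle stem cells, the precursors from which injured muscle is rebuilt, in 10-week-old mice 60 h after cardiotoxin (CTX), a venom toxin that injures muscle. The 3 control libraries are labelled wild type and came from mice given oil, and the 3 knockout (KO) libraries are labelled as Setdb1 knockouts and came from mice given tamoxifen. Genotype and tamoxifen changed together and cannot be told apart, and the Cre line and the deleted exon are not named in the labels. Setdb1 encodes a methyltransferase for lysine 9 of histone H3.

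Replication-dependent histone genes supply the histones that package newly copied DNA, and they are transcribed mainly during S phase. H2A, H2B, H3 and H4 form the nucleosome core, and H1 binds the linker DNA between nucleosomes. Most of their messenger RNAs end in a short stem-loop instead of a poly(A) tail. SLBP binds the stem-loop, the precursor RNA is cleaved just downstream of it with the help of U7 snRNP, and the messenger RNA is degraded quickly when DNA synthesis stops. The coactivator NPAT drives their transcription in histone locus bodies. Muscle stem cells leave quiescence and divide after injury, and those that copy their DNA make these transcripts.

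The stem-loop is printed first because it is the sequence these transcripts share and because it bears on how well a library method captures them. The search took 16 bases: a stem of 6 base pairs opening with GG and a loop of 4 bases opening with UU. It matched annotated transcripts of 42 of the 67 genes (62.7%), against 107 of 21884 other protein-coding genes (0.489%). Stem-loops with other letters were not searched for, so these shares hold for this pattern alone. The other 25 genes include many whose annotation covers little more than the coding sequence, so a missing match says only that the letters are not in the annotated transcript. The 6 forms are given as RNA, 5′ to 3′, with the loop in capitals and the stem in lower case.
Form of 25 genes, for example Hist1h3b (GRCm38, chr13:23752820-23752835, plus strand): ggcucuUUUCagagcc
Form of 6 genes (Hist1h1t, Hist1h2bb, Hist1h2bk, Hist1h3c, Hist1h3e, Hist1h3f): ggcucuUUUAagagcc
Form of 6 H4 genes (Hist1h4c, Hist1h4d, Hist1h4f, Hist1h4h, Hist1h4m, Hist1h4n): ggcccuUUUCagggcc
Form of 2 H4 genes (Hist1h4i, Hist2h4): ggcccuUUUUagggcc
Form of 2 H4 genes (Hist1h4b, Hist1h4j): gguccuUUUCaggacc
Form of Hist2h2ac: ggcucuUUUUagagcc
All H4 genes with a match carried a stem that no other class had, and the most frequent form occurred in H1, H2A, H2B and H3.

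Promoters were compared next, class by class. The windows run from 250 bases before to 50 bases after the annotated start (RefSeq, GRCm38.p6), and 3 short motifs were searched on both strands. Windows were found for 60 of the 67 genes, with 2 windows for Hist1h2be, and a gene counts once if any of its windows holds the motif. The octamer ATTTGCAT, known from H2B promoters, was found for 7 of 16 H2B and 6 of 17 H2A genes and for no H1, H3 or H4 gene, against 1.97% of 27025 genes. The letters CCAAT, the core of the box bound by NF-Y, were found for all 49 H1, H2A, H2B and H3 genes with a window and for 3 of 11 H4 genes, against 41.1% of all genes. The letters TATAAA were found for 4 of 6 H1, 11 of 17 H2A, 8 of 16 H2B, 4 of 10 H3 and 8 of 11 H4 genes, against 15.7%. The windows of 10 pairs of an H2A and an H2B gene on opposite strands overlapped by 220 to 279 bases, so the octamer counts of these classes are not separate. A window with all of the motifs (an H2B gene), one with CCAAT and TATAAA (an H1 gene) and one with none of them (an H4 gene) are shown 5′ to 3′ along the gene's strand, with every match in capitals.
Hist1h2bb, chr13:23746484-23746783, plus strand: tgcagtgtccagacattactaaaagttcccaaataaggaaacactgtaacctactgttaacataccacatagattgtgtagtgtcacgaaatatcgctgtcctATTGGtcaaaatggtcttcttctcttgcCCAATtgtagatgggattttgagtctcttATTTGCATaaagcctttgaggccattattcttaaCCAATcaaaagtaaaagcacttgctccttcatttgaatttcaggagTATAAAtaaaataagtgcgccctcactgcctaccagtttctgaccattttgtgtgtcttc
Hist1h1b, chr13:21780576-21780875, minus strand: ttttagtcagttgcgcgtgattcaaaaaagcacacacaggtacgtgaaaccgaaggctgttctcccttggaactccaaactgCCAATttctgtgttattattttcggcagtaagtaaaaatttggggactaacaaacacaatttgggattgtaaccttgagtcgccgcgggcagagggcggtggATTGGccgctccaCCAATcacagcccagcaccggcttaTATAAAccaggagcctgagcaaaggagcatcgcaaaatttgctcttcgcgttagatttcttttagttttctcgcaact
Hist1h4h, chr13:23530794-23531093, plus strand: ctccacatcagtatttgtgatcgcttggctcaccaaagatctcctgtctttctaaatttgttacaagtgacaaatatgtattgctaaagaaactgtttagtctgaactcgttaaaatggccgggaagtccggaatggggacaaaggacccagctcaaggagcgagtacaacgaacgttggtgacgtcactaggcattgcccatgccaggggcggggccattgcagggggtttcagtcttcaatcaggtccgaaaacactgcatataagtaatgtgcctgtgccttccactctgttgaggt
A match is a description of letters and does not show that a factor was bound there.

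Libraries held 4052569 to 5690844 counts, of which 2002124 to 3050460 fell on protein-coding genes. Setdb1 checked the labels: it was lower in every KO library (35.8 ± 4.26 against 14.6 ± 1.88 CPM, SD over 3 libraries), with a log2 fold change of -1.30, a standard error (SE) of 0.16 and an adjusted p of 2.092e-04 by edgeR's quasi-likelihood test. CPM are counts scaled by library size, here normalised by TMM. All 10 muscle stem cell markers were detected, with sums of 1366, 1309 and 1286 CPM in the controls and 1880, 1570 and 1450 CPM in the KO libraries, and 1 of them, Myod1, a myogenic transcription factor, rose (log2 fold change 1.04, adjusted p = 0.0007791). The 10 fibro-adipogenic markers summed to 1921, 886.4 and 1377 against 1606, 1627 and 2477 CPM; 8 of the 9 tested were positive and none passed. The part of these differences in the histone values was not tested. In KO library 1, 38.4% of the counts fell on 1 ribosomal RNA gene, CT010467.1, against 28.6% to 32.2% in the other 5, and its protein-coding count was the lowest. Control library 3 stood apart in neutrophil transcripts. The 10 neutrophil markers summed to 2296 CPM there. They summed to 3.00 and 2.92 in the other controls and to 3.46, 933.7 and 305.6 in the KO libraries. S100a8 was at 0 in control libraries 1 and 2 and KO library 1. Ngp and S100a9, named by their level, were at 599.2 and 629.2 CPM in control library 3. In KO library 2 they were at 199.6 and 215.8 CPM. Mpo and Elane, genes of granulocyte precursors picked after their values were seen, differed less between these libraries. They were at 136.5 and 64.6 CPM in control library 3 and 141.9 and 53.4 CPM in KO library 2. Of the 11224 genes that passed the filter on low counts, 318 were past an adjusted p of 0.05, 249 higher (2.22%) and 69 lower (0.615%) in KO cells.

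No replication-dependent histone gene passed the test: 0 of the 57 tested were past an adjusted p of 0.05 by edgeR, where 2.83% of all tested genes were, and the lowest adjusted p was 0.1021. At an unadjusted p under 0.05, 12 of 57 were lower and 0 higher (background 7.64% lower and 10.1% higher), with DESeq2 giving 12 lower and 1 higher and limma-voom 12 lower. The log2 fold changes were negative for 52 of the 57, against 49.1% of all tested genes, and their median was -0.25 against 0.01. The groups did not overlap for 6 of the 57 (Hist1h1a, Hist1h1b, Hist2h2aa1, Hist1h2bb, Hist1h2bh and Hist1h2bm, all lower in KO cells), where 11.5% of all genes were lower without overlap, so this count is near the background. In bulk RNA, fewer cells in S phase and less histone RNA per cell cannot be told apart.

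The direction rested largely on control library 3. Together the 67 genes reached 5810, 6634 and 9149 CPM in control libraries 1 to 3 and 5847, 6719 and 5245 CPM in KO libraries 1 to 3. Control library 3 was the highest of all and the other 5 libraries interleaved, so the groups overlapped. The means were 7198 ± 1740 and 5937 ± 741 CPM (SD, n = 3), a ratio of 0.825 (log2 ratio -0.28). Of the 57 tested genes, 49 had their highest level in control library 3, whereas 16.7% of all tested genes did, and 29 had their lowest in KO library 3. Without control library 3 the log2 ratio of the sums was -0.07, the median log2 fold change was -0.04, 31 of the 57 were negative, and 5 of 57 were lower at an unadjusted p under 0.05 (8.77%, background 8.3%). Without control library 1, in contrast, the median was -0.39 and 3 genes (Hist1h2bh, Hist1h3g and Hist1h4n) passed the adjusted threshold as lower (background 0.327%). Control library 3 is also the library with the most neutrophil transcripts, and their part in its histone level was not tested. KO library 2 had the next highest sum of these markers (933.7 CPM) and the second highest histone sum, and KO library 3 had 305.6 CPM of them and the lowest histone sum.

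**Figure D1:**
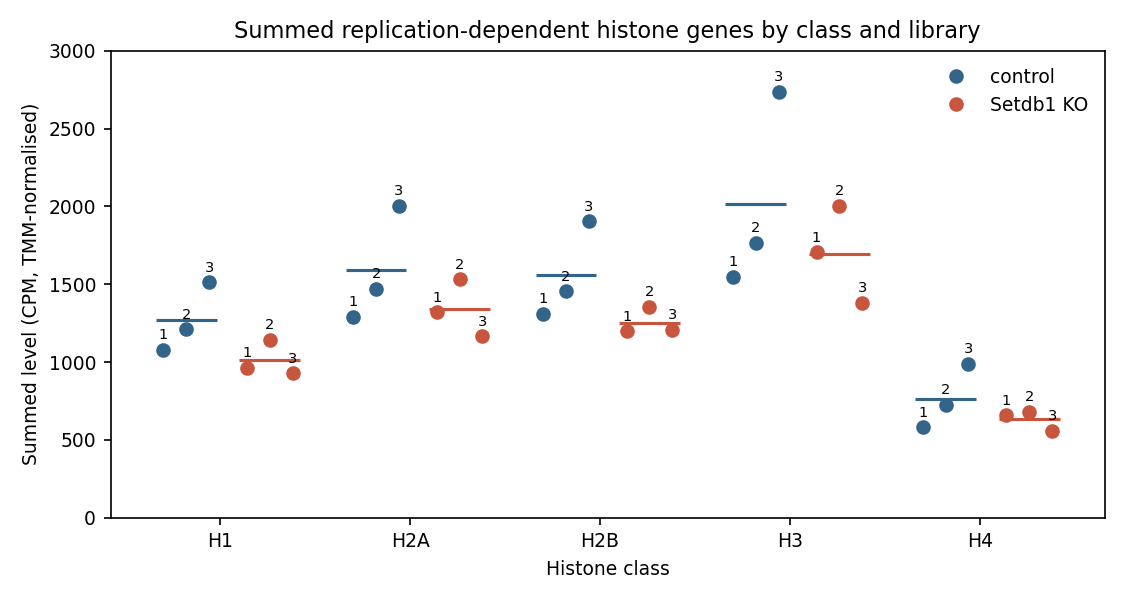
Summed TMM-normalised level (CPM, vertical axis from 0) of the members of each histone class (horizontal axis) in every library; numbers are replicate numbers and lines are group means. Control library 3 is the highest point in all 5 classes, up to 2738 CPM for H3. The other libraries of both groups interleave, from 1381 to 2005 CPM for H3.

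Per kilobase of coding sequence, which puts genes of different length on 1 scale but ignores untranslated ends, the H3 genes summed to 4552, the H2A genes to 3757, the H2B genes to 3682, the H4 genes to 2265 and the H1 genes to 1741 CPM per kb (means over 6 libraries). As background, a nucleosome holds equal numbers of the core histones. Single genes differed far more than classes. Hist2h2aa1 (980 CPM per kb) and Hist1h2ap (954) led H2A, followed at a distance by Hist1h2ad (262). Both leaders have a near-identical copy, Hist2h2aa2 at 2.10 and Hist1h2ao at 38.3 CPM per kb. The lead of single copies and the spread between genes depend on how shared reads were assigned, which was not given. The H3 genes Hist1h3f, Hist1h3c and Hist1h3b lay together at 715, 711 and 693. Hist1h2bb led H2B at 619, Hist1h4d led H4 at 540 and Hist1h1e led H1 at 529. The share of each class in the members' counts barely moved between libraries: 16.5% to 18.6% for H1, 21.9% to 22.8% for H2A, 20.2% to 23.0% for H2B, 26.3% to 29.9% for H3 and 10.0% to 11.3% for H4. Between controls and KO libraries the class shares overlapped except for H2A, which took 21.9% to 22.2% in the controls and 22.3% to 22.8% in the KO libraries.

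**Figure D2:**
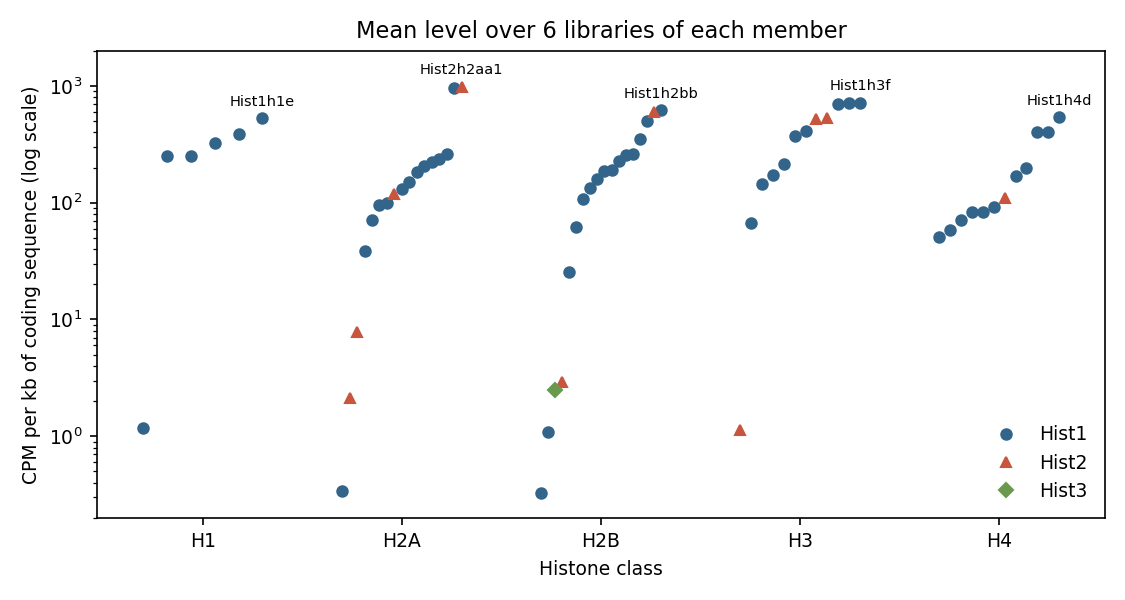
Mean level over 6 libraries of each member with a count and an annotated coding sequence (CPM per kb of coding sequence, log scale) by histone class, with symbols for the gene cluster. Within each class the genes span more than an order of magnitude, and the highest is named, for example Hist2h2aa1 at 980 in H2A. Levels of near-identical genes depend on how their shared reads were assigned.

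The 10 members that did not pass the filter on low counts were few in reads in every library. Hist1h1t, Hist1h2aa and Hist1h2ba, known as testis histones, stayed at or below 1.06 CPM, and the pseudogene Hist1h2aj had no count. Hist2h2be and Hist3h2ba stayed at or below 1.86 CPM, and Hist1h2bq and the pseudogene Hist1h2al at or below 1.04. Hist2h2aa2 and Hist2h3c1, both entirely covered by sequence of other genes, are described with the near-identical copies.

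All 5 tested H1 genes had a negative log2 fold change (median -0.29), and none passed the adjusted threshold. At an unadjusted p under 0.05, 3 of them were lower (background 7.64%). Hist1h1b (chr13:21779883-21780625), whose promoter is printed above, encodes a linker histone of dividing cells and was at 261.5, 297.1 and 331.4 CPM in the controls and 209.6, 259.3 and 198.9 CPM in the KO libraries. Every KO value lay under every control value, the nearest 2 being KO library 2 and control library 1. The fold change was -0.41 on the log2 scale (SE 0.14, adjusted p = 0.1301, edgeR). Hist1h1a, another linker histone gene, also separated the groups, at 162.2, 172.4 and 190.5 against 157.5, 141.5 and 130.5 CPM (log2 fold change -0.29, adjusted p = 0.223). Hist1h1d stood at 198.1, 251.1 and 292.6 against 153.2, 206.4 and 182.1 CPM. Only KO library 2 reached into the control range, and the log2 fold change was -0.45 (SE 0.15, adjusted p = 0.1455). Hist1h1e had the highest H1 level, 318.8, 338.4 and 478.1 against 302.9, 363.7 and 283.6 CPM, with overlap (log2 fold change -0.26, adjusted p = 0.4318). Its exons overlap those of Hist1h2be on the same strand, which held far fewer counts. The H1 sum was 1079, 1213 and 1513 CPM in the controls and 965.5, 1143 and 929.3 CPM in the KO libraries (log2 ratio -0.32), and without control library 3 the median of the 5 genes was -0.23, with 4 of them negative.

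H2A genes gave 14 negative values of 15 tested (median -0.24), with 1 lower at an unadjusted p under 0.05 (background 7.64%). That gene was Hist2h2aa1 (chr3:96245497-96246082), the H2A gene with the highest level, at 382.1, 393.7 and 492.8 CPM in the controls and 322.4, 376.4 and 326.4 CPM in the KO libraries. The groups did not overlap although KO library 2 lay just under control library 1. The log2 fold change was -0.31 (SE 0.13, adjusted p = 0.2464). Hist1h2ap, the next highest, was at 303.4, 354.3 and 555.3 against 350.3, 393.6 and 275.4 CPM (log2 fold change -0.25, adjusted p = 0.6326), with control library 3 the highest and overlap among the rest. Without control library 3 the value was 0.04. Hist1h2ad, at 85.9, 101.9 and 151.7 against 74.5, 122.8 and 75.2 CPM, had a log2 fold change of -0.32 (adjusted p = 0.6462), with overlap. Hist1h2ao showed the most scattered H2A values, 11.8, 10.0 and 31.6 against 3.99, 9.45 and 22.7 CPM, and its log2 fold change of -0.53 had an SE of 0.81. Hist1h2ah was the H2A gene with a positive value, 0.05 (SE 0.19, adjusted p = 0.9317); it turned to -0.01 when library totals replaced TMM. The H2A sum was 1291, 1471 and 2004 against 1319, 1534 and 1167 CPM, and without control library 3 the class median was -0.05.

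Of 14 tested H2B genes, 13 were negative (median -0.20), and 5 were lower at an unadjusted p under 0.05 (background 7.64%). The groups did not overlap for 3 of the 14, all lower in KO cells (background 11.5%). Hist1h2bm (chr13:21722044-21722567) had the lowest p of all members, with 105.9, 104.6 and 126.9 CPM in the controls and 72.3, 96.3 and 81.1 CPM in the KO libraries. All KO values were lower than all control values, and the log2 fold change was -0.43 (SE 0.13, adjusted p = 0.1021). Hist1h2bh (chr13:23541714-23543392) was at 65.3, 77.9 and 106.0 against 56.4, 62.8 and 53.9 CPM. Its groups were separate too, and the fold change was -0.53 on the log2 scale (SE 0.16, adjusted p = 0.1103); without control library 1 it was -0.68 and passed (adjusted p = 0.02933). Hist1h2bb (chr13:23746734-23747241), the H2B gene with the highest level and the promoter with every motif, was at 237.1, 225.2 and 342.3 against 183.0, 221.4 and 195.0 CPM (log2 fold change -0.42, adjusted p = 0.1814). The groups were separate, with KO library 2 just under control library 2. Hist2h2bb had a log2 fold change of -0.44 (adjusted p = 0.1979); its exons overlap a noncoding gene, Gm42743, with 53 to 128 counts. Hist1h2bp had the most negative value of all members, -0.66 (SE 0.27, adjusted p = 0.2208), from 10.8, 10.7 and 17.4 against 7.18, 11.3 and 6.06 CPM, with KO library 2 inside the control range. Hist1h2bk was the H2B gene with a positive value (0.19, adjusted p = 0.6735), with KO library 1 at 84.3 CPM and the other 5 libraries between 47.1 and 65.0 CPM; without KO library 1 the value was -0.04. The H2B sum was 1310, 1456 and 1906 against 1197, 1355 and 1209 CPM (log2 ratio -0.31). The class median was -0.10 without control library 3.

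H3 genes, the substrates of Setdb1 as proteins, were the class whose median moved most when control library 3 was left out. Of 11 tested, 9 were negative (median -0.25), 1 was lower at an unadjusted p under 0.05 (background 7.64%) and none separated the groups. Their median without that library was 0.05, with 3 of 11 negative. Hist1h3f (chr13:23544052-23545312) had 232.9, 274.9 and 469.4 against 255.1, 306.8 and 210.3 CPM (-0.34 on the log2 scale, SE 0.29, adjusted p = 0.6089). Control library 3 was far above the other 5 libraries, among which KO libraries 1 and 2 were not lower than control library 1, and without it the value was 0.02. Hist1h3c showed the same order of control library 3 above the rest, at 231.5, 278.3 and 412.3 against 274.8, 336.8 and 207.5 CPM (log2 fold change -0.17), and turned to 0.10. Hist1h3b had 255.7, 276.8 and 418.8 against 236.7, 312.1 and 196.4 CPM (log2 fold change -0.35, adjusted p = 0.4722). Hist1h3g (chr13:23535422-23535951) had the lowest p of the class, from 52.7, 68.7 and 89.2 against 55.6, 45.0 and 43.4 CPM. Its groups overlapped through KO library 1 and control library 1, and the log2 fold change was -0.55 (SE 0.18, adjusted p = 0.1455); without control library 1 it was -0.73 and passed (adjusted p = 0.02208). Hist1h3h and Hist1h3i were the H3 genes with positive values, 0.51 (SE 0.26, adjusted p = 0.3554) and 0.06. Hist1h3h was at 17.2, 19.6 and 29.9 against 40.4, 32.9 and 22.7 CPM, with overlap, and 93.9% of its 50-base words occur in other genes. The H3 sum was 1548, 1767 and 2738 against 1705, 2005 and 1381 CPM.

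H4 genes gave 11 negative values of 12 tested (median -0.25), and no gene separated the groups. At an unadjusted p under 0.05, 2 were lower (background 7.64%). The class median without control library 3 was 0.01, and 6 of 12 were negative. Hist1h4n (chr13:21831767-21832196) had 112.1, 146.8 and 179.2 CPM in the controls and 94.2, 94.9 and 121.4 CPM in the KO libraries. KO library 3 alone reached the control range, and the log2 fold change was -0.50 (SE 0.17, adjusted p = 0.1481), which passed without control library 1 (-0.66, adjusted p = 0.03952). Hist1h4h (chr13:23531050-23531519), whose printed promoter holds none of the motifs, had 117.6, 132.8 and 176.6 against 109.0, 118.5 and 98.5 CPM. The overlap was that of KO library 2 with control library 1, and the log2 fold change was -0.39 (SE 0.15, adjusted p = 0.1881). Hist1h4d, the H4 gene with the highest level, had 119.0, 180.6 and 235.7 against 167.3, 161.0 and 137.6 CPM (log2 fold change -0.20), and 0.05 without control library 3. The H4 sum was 582.2, 727.1 and 989.4 against 659.9, 682.5 and 558.5 CPM.

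**Figure D3:**
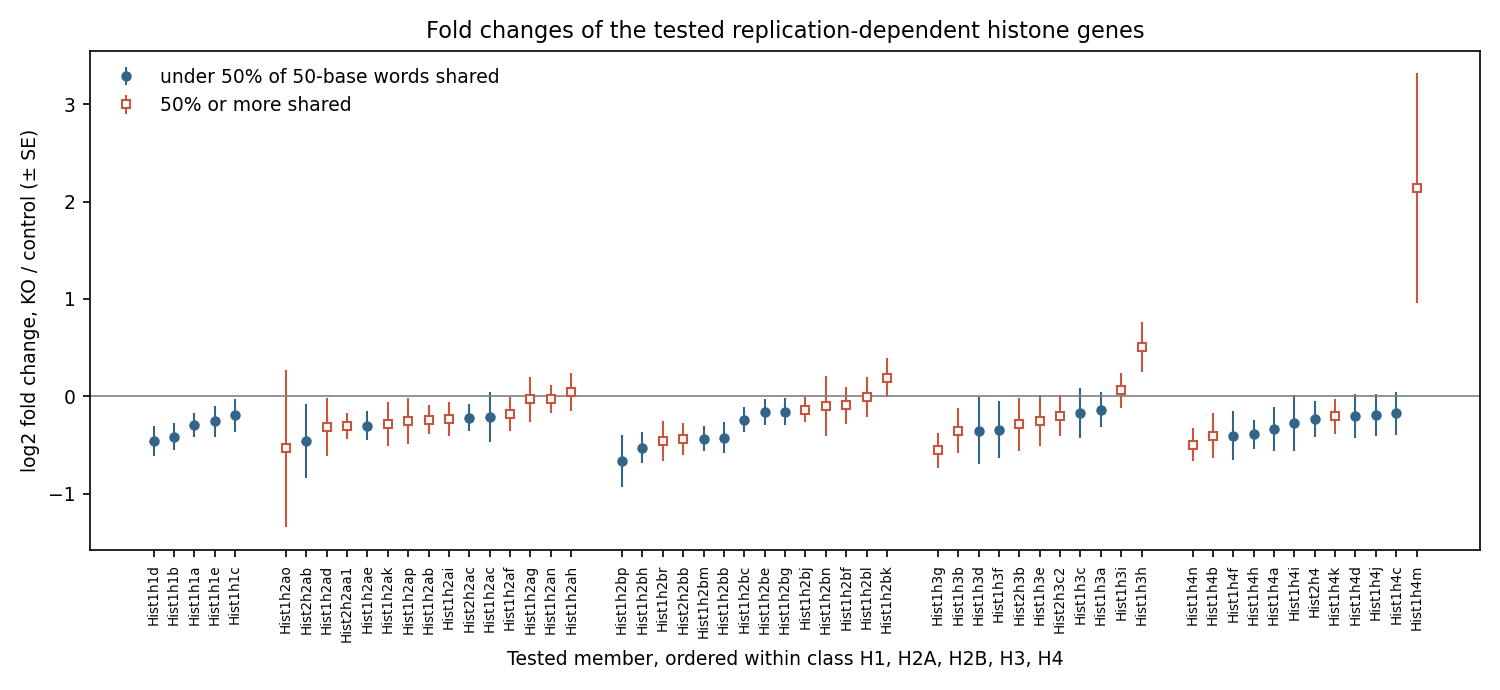
Log2 fold change (KO over control) with its SE for each of the 57 tested members, ordered within class; filled circles are genes with under 50% of their 50-base words in other genes, open squares those with 50% or more. All 28 circles lie below 0, the 5 values above 0 are squares, and Hist1h4m stands alone at 2.14.

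Many of these genes are so alike that reads of 75 bases cannot always be assigned to 1 of them, so sequence shared with other genes was measured as the percent of a gene's 50-base words found in annotated transcripts of another gene. The 28 tested genes with under 50% of words shared were all negative (median -0.28), and the 29 others were negative in 24 cases (median -0.23). Of those 28, 18 were negative without control library 3 (median -0.07). The gene with the largest positive value has a near-identical copy. Hist1h4m (chr13:21811746-21812147) held 22, 29 and 37 counts in the controls and 146, 183 and 7 in the KO libraries, which gave 2.14 on the log2 scale, with an SE of 1.18 and an adjusted p of 0.4424. KO libraries 1 and 2 were high and KO library 3 was the lowest of all. Without KO library 3 the value was 2.71 and passed (adjusted p = 4.181e-06), the only member called higher when a library was left out (background 1.51%). Its copy Hist1h4n, which shares an identical run of 366 bases and the same stem-loop, held 560, 703 and 970 counts in the controls and 354, 462 and 621 in the KO libraries, low where Hist1h4m was high. The 2 genes together had 582, 732 and 1007 against 500, 645 and 628 counts, that is 116.6, 152.8 and 186.0 against 133.0, 132.4 and 122.7 CPM. The sum gave -0.23 on the log2 scale (SE 0.15, adjusted p = 0.4501). Hist1h4n held most of the pair's counts in every library, so the sum weighs mainly that gene.

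Other copies were summed likewise where at least 80% of the words of 1 gene occurred in the other, directly or through another member. Hist2h2aa2, identical to Hist2h2aa1 over 528 bases, held 0, 5 and 21 counts in the controls and 0, 0 and 0 in the KO libraries, and the 2 genes summed gave a log2 fold change of -0.31 (adjusted p = 0.2404), as Hist2h2aa1 did alone. Hist2h3c1 reached this cut with no other member and was not summed in the fit. It held 19 counts in KO library 3 and 0 in the other 5. With no filter on low counts these 2 genes were called, Hist2h2aa2 lower (background 0.395%) and Hist2h3c1 higher (background 1.07%), although 100% of their words occur in other genes. Hist1h2ao and Hist1h2ap, identical over 452 bases, gave -0.26 together (adjusted p = 0.6099), close to Hist1h2ap alone. Hist1h2ad, Hist1h2ah, Hist1h2ai, Hist1h2aj and Hist1h2an summed to -0.18 (adjusted p = 0.6362), and Hist1h2bq with Hist1h2br to -0.46 (adjusted p = 0.2891). With such copies summed, no family was past the threshold and the median over families and single genes was -0.24. Hist1h3h and Hist1h3i, with 79.3% of their words in common, fell under the cut and were added up separately. They gave 73.7, 87.5 and 110.8 against 127.9, 106.2 and 76.8 CPM, a positive log2 ratio of 0.19 with overlap. Hist2h3b, Hist2h3c1 and Hist2h3c2, also under the cut, gave a log2 ratio of -0.24 together. These sums carry no test.

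**Figure D4:**
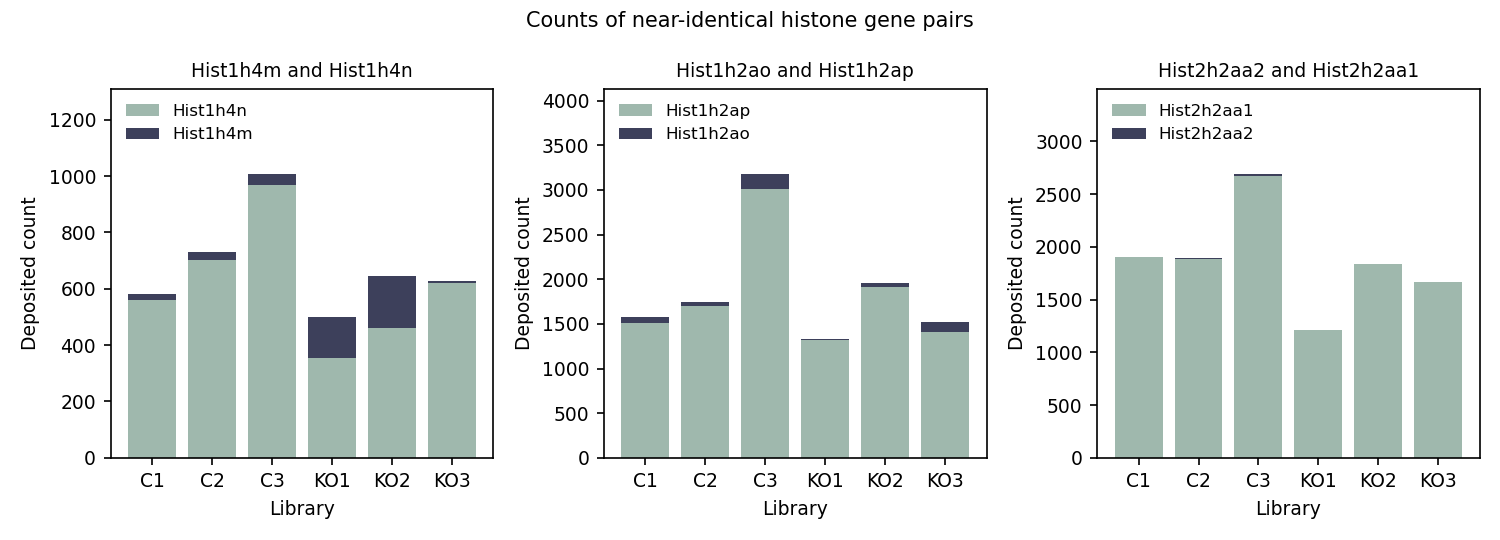
Deposited counts (vertical axis from 0) of 3 pairs of near-identical genes in each library, stacked; C and KO are control and KO libraries. Hist1h4m takes 146 and 183 counts in KO libraries 1 and 2 and 7 in KO library 3, while the stacked total of the pair lies between 500 and 1007.

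By position, the members fall on chromosomes 13, 3 and 11. The Hist1 cluster on chromosome 13 held 56 genes in 2 dense blocks, 24 genes over 328 kb (chr13:21715763-22043676) and 31 genes over 404 kb (chr13:23531050-23934851), and 1 pseudogene far away. In the first block 17 of 22 tested genes were negative (median -0.20), and in the second 28 of 28 were (median -0.27). The 5 genes with positive values (Hist1h4m, Hist1h3h, Hist1h2bk, Hist1h3i and Hist1h2ah) all lie in the first block, and each has at least 74.2% of its words in other genes. The Hist2 cluster on chromosome 3 (chr3:96219865-96270132) held 10 genes, of which the 7 tested were all negative (median -0.29), and the 1 gene on chromosome 11 was not tested. Leaving out control library 3 gave medians of -0.03 for Hist1 and -0.07 for Hist2. Hist1 took 82.1% to 83.7% of the members' counts in every library, with the groups overlapping.

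Members were also described by stem-loop and promoter. Genes whose stem-loop lies within 60 bases of an annotated 3′ end had a median of -0.31 (20 tested), genes whose annotation runs on beyond it had -0.22 (18 tested), and genes with no stem-loop in the annotated transcript had -0.24 (19 tested). The 11 tested genes with the octamer in the promoter had a median of -0.22. The difference between these sets was not tested. Transcripts that end at the stem-loop lack a poly(A) tail and are kept by ribosomal RNA removal but not by poly(A) selection. The labels name both a total RNA kit and an mRNA kit, and which one made these libraries cannot be told from them.

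Histone variants that are also made outside S phase, mostly from polyadenylated RNA, were measured beside the members. None of the 11 tested of 15 listed was past the threshold (median -0.10), and 3 were lower at an unadjusted p under 0.05 (background 7.64%). H2afz, whose variant replaces H2A at many promoters, was at 364.1, 426.7 and 425.4 against 292.3, 360.8 and 321.9 CPM, with no overlap (log2 fold change -0.32, adjusted p = 0.2125). H3f3b, whose variant replaces H3 at active genes, was at 303.2, 313.3 and 344.5 against 228.7, 293.4 and 279.3 CPM, also with no overlap (log2 fold change -0.26, adjusted p = 0.3037). Control library 3 was close to the other controls for both genes. H2afx, for the variant phosphorylated at DNA breaks, is known to give a stem-loop transcript as well as a polyadenylated one. It was at 111.7, 113.4 and 143.0 against 173.9, 156.9 and 111.2 CPM (log2 fold change 0.26, adjusted p = 0.4355), with overlap.

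Genes for transcription and processing of histone RNA had a median of -0.13 over 23 tested of 26 listed. Of the 23, 18 were negative, 5 were lower at an unadjusted p under 0.05 (background 7.64%) and 5 were lower without overlap (background 11.5%). Casp8ap2, which encodes the histone locus body protein FLASH, fell from 68.7, 70.6 and 60.4 CPM to 33.8, 43.9 and 49.6 CPM (-0.64 on the log2 scale, SE 0.14, adjusted p = 0.02404). It was the 1 gene of the list past the threshold (background 0.615% lower), with no overlap, but the call was lost on leaving out control library 1 (adjusted p = 0.0756), control library 2 (0.1394), KO library 1 (0.1076) or KO library 2 (0.0845), and with DESeq2 (0.06596) or limma-voom (0.0567). Npat, the coactivator of histone transcription, was at 75.7, 71.6 and 56.2 against 41.0, 51.3 and 54.1 CPM (log2 fold change -0.47, adjusted p = 0.1018), and it passed without control library 3 (-0.59, adjusted p = 0.03022). Slbp, the stem-loop binding protein, was at 104 ± 7.52 against 81.3 ± 13.2 CPM (SD, n = 3; log2 fold change -0.36, adjusted p = 0.1745). In both genes all KO values lay under all control values. Of 26 histone chaperones, 1 was past the threshold (background 0.615% lower): Mms22l, a partner of the H3-H4 chaperone TONSL, fell from 27.7 ± 1.38 to 17.6 ± 0.862 CPM (SD, n = 3; log2 fold change -0.65, adjusted p = 0.02255). Its call was lost on leaving out control library 2, control library 3 or any 1 of the KO libraries (adjusted p = 0.0529 to 0.0877), and with DESeq2 (0.2236). The chaperone list had a median of -0.25, and 11 of its 26 genes were lower without overlap (background 11.5%).

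The DNA replication genes, which like these histone genes are active in S phase, differed from them in how the libraries were ordered. Their sum was 3353, 3473 and 3329 CPM in the controls and 2488, 2777 and 2763 CPM in the KO libraries, with no overlap, and control library 3 was the lowest control. All 49 tested were negative (median -0.35), 35 of them without overlap (background 11.5%), and 3 fell past the threshold (background 0.615% lower). These were Tk1, for thymidine kinase (log2 fold change -0.64, adjusted p = 0.0341), and Mcm10 (-0.61, adjusted p = 0.03581) and Mcm7 (-0.45, adjusted p = 0.04454), for factors of replication initiation and of the replicative helicase. Each of these calls ended when 1 library was left out: Tk1 without any 1 but KO library 1 (adjusted p = 0.0571 to 0.1411), Mcm10 without any 1 but control library 3 (0.0562 to 0.1885), and Mcm7 without any 1 of the 6 (0.0677 to 0.1472). Tk1 was also lost with DESeq2 (0.2314), limma-voom (0.0554) and a replicate block (0.0589), and Mcm10 with DESeq2 (0.1848) and limma-voom (0.0703). Mcm7 was lost with limma-voom (0.0565), library totals (0.0737), no filter on low counts (0.069), a minimum of 1 CPM in 3 libraries (0.0509) and a replicate block (0.1025). Without control library 3 the list's median was -0.33, with 47 of 49 negative, where that of the histone genes was -0.04. The ratio of the histone sum to the DNA replication sum was 1.73, 1.91 and 2.75 in the controls and 2.35, 2.42 and 1.90 in the KO libraries. Control library 3 had the highest ratio, KO libraries 2 and 1 came next, and KO library 3 lay between control libraries 1 and 2. The groups overlapped. No test of the difference between the lists was made.

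**Figure D5:**
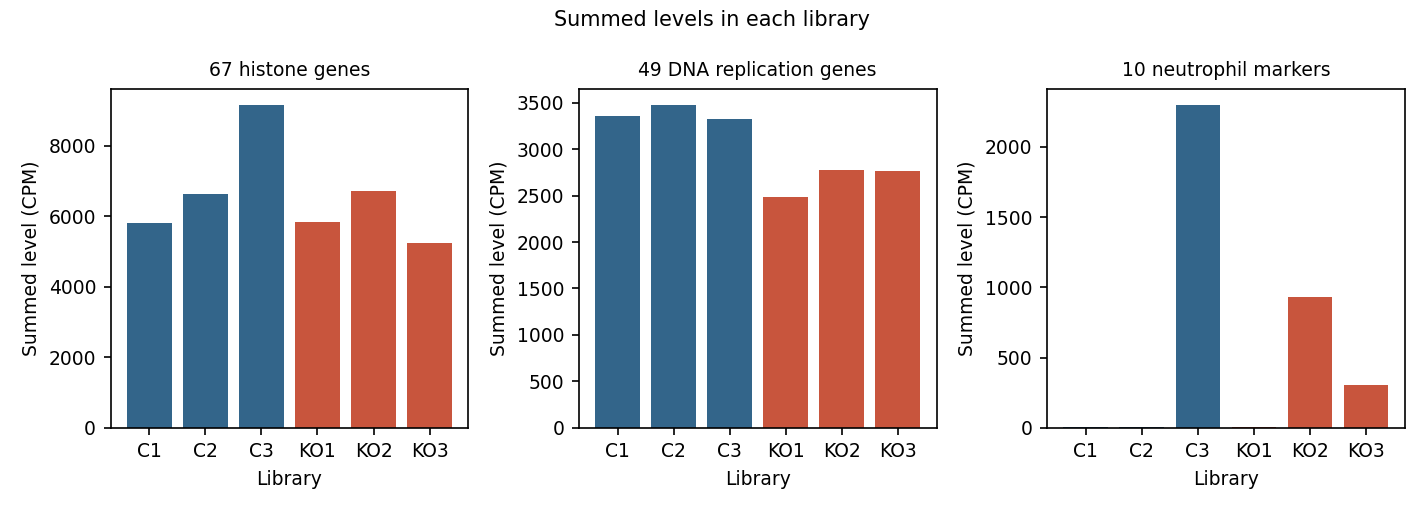
Summed level (CPM, axes from 0) of the 67 histone genes, 49 DNA replication genes and 10 neutrophil markers in each library; blue bars are controls (C) and red bars KO libraries. The DNA replication sum is lower in every KO library (2488 to 2777 against 3329 to 3473), whereas the histone sum is high in control library 3 alone (9149). Neutrophil markers sum to 2296 CPM in control library 3. They sum to 933.7 CPM in KO library 2 (histone sum 6719) and 305.6 CPM in KO library 3 (histone sum 5245). Their part in the histone level was not tested.

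The core histone genes Hist3h2a and Hist4h4 lie just outside the name patterns, and their summed level had a log2 ratio of 0.0033 against -0.28 for the members. Hist3h2a was at 64.5, 78.3 and 73.0 against 71.3, 78.4 and 75.8 CPM (log2 fold change 0.07, adjusted p = 0.8135). Hist4h4 was at 25.6 ± 4.45 against 22.6 ± 2.81 CPM (SD, n = 3; log2 fold change -0.19, adjusted p = 0.5895). Both carry a stem-loop of the forms printed above, and control library 3 was not the highest for Hist3h2a but was for Hist4h4.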

How the data were processed

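Counts of 6 libraries, as whole numbers for each Ensembl gene in 1 table, are what the authors deposited. The tools named in the submitters' processing notes are STAR, Salmon and DESeq2 1.34.0, on GRCm38. The counter, its strand setting and its treatment of reads that fit several genes were not given in the sources used here. Libraries started, per the labels' protocols, from 400 ng of RNA cleared of ribosomal RNA and were read as pairs of 75 bases; an mRNA kit is named as well. Totals ran from 4052569 to 5690844 counts, with no molecular identifiers named.

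Symbols came from a table of Ensembl names (55141 of 55487 genes matched), coordinates and transcripts from GENCODE M21 on GRCm38, and newer names and promoters from RefSeq. Counts were tested over all genes with edgeR 4.0.16 in R 4.3.3 (quasi-likelihood, robust dispersion, TMM, default filter on low counts, two-sided, Benjamini-Hochberg adjustment over 11224 genes). Each SE was computed from the F statistic of the log2 fold change. The code was tested on simulated data. Alternatives were other scalings and filters, DESeq2 1.42.0, limma-voom (limma 3.58.1), a replicate block, removal of structural RNA genes, and each library left out. Summed near-identical genes, and control library 3 and KO library 1 left out together, were added after seeing the data, since these libraries stood apart in neutrophil transcripts and in ribosomal RNA. Sums over members carry no test.

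Members and gene lists were chosen with earlier results of these data known. Named members were, per class, the 3 with the highest mean CPM and the one with the smallest p, and over all members the 5 largest values in each direction. For the other lists up to 4 genes past the threshold were named, or the 2 with the highest mean CPM where none passed, and Slbp, Npat, Setdb1, H2afx, H2afz and H3f3b always. Other members, Hist3h2a and Hist4h4 are named to account for a class, a cluster or the naming rule. S100a8, Mpo and Elane were chosen after their values were seen.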

Additional observations from a re-analysis of the deposited data

How the results depend on the processing

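No member was past the threshold in 15 of the 18 fits; the exceptions were no filter on low counts (5 members: Hist1h2bh, Hist1h3g, Hist1h4n, Hist2h2aa2 and Hist2h3c1), and the fits without control library 1 (3) and without KO library 3 (1), a range of 0 to 3 when 1 library was left out. The genes changed over all genes tested numbered 318, and 511 without the filter, 184 with DESeq2, 200 with limma-voom, and 152 (without KO library 1) to 345 when 1 library was left out, with 157 without control library 2 and 180 without KO library 2. The median of the members was -0.25, between -0.30 and -0.23 under the other scalings, filters and tools, and between -0.39 and -0.04 when 1 library was left out. The log2 ratio of the sums ran from -0.42 to -0.07 when 1 library was left out. With control library 3 and KO library 1 left out together, the median was -0.05 and no member was called.

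Deviations from the group means had correlations of 0.14, -0.09 and -0.06 between libraries that share a replicate number. Other combinations of a control and a KO library ran from -0.25 to 0.29. With means of only 3 libraries this check cannot decide whether the numbers pair the samples. A fit with the replicate block called 247 genes and no member, with a median of -0.23.

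Of 417 values of 25 named members under alternatives, 392 kept their direction and side of the threshold, 7 gained a call and 18 changed sign. Of 339 values of 20 other named genes, 282 did, 40 lost a call, 2 gained one and 15 changed sign. With control library 3 and KO library 1 left out together the log2 fold changes that changed sign were 0.072 for Hist1h2ad, 0.56 for Hist1h2ao, 0.0209 for Hist1h2ap, 0.0905 for Hist1h3c, 0.0222 for Hist1h3f, 1.84 for Lyz2, 7.81 for Ngp and 12.49 for S100a9. With 1 library left out at a time, values of both signs were found for Hist1h2ah (-0.0944 to 0.24), Hist1h2ao (-1.38 to 0.18), Hist1h2ap (-0.4307 to 0.0443), Hist1h2bk (-0.0374 to 0.3662), Hist1h3c (-0.3538 to 0.0963), Hist1h3f (-0.5417 to 0.0169), Hist1h3i (-0.1044 to 0.2177) and Hist1h4d (-0.434 to 0.0487). The same held for markers of other cell types, Col1a2 (-0.10 to 0.56), Lyz2 (-1.42 to 1.36), Ngp (-2.15 to 7.24), Ptprc (-1.09 to 1.48), S100a9 (-2.43 to 11.85) and Tek (-0.30 to 0.3154). Library totals gave -0.0098 for Hist1h2ah and -0.0032 for Tek, limma-voom 1.92 for Ngp, 0.24 for Ptprc and 3.63 for S100a9, and the replicate block 0.94 for Ngp and 1.08 for S100a9. The causes were not tested.

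With 3 libraries a group, and 49 of the 57 tested members highest in 1 of them, the spread within the controls limits every difference given. Counts of single copies depend on how reads common to several genes were assigned.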
